A study of Homo sapiens with 6 samples.

Results

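The genes described here encode the proteins of the cytosolic ribosome. They were chosen by their symbols (RPL or RPS and a number, with an A, X, L, L1 or AL ending where there is one, RPLP0 to RPLP2, and RPSA), which took 84 of the 18216 genes in the table. Of these, 46 encode proteins of the large (60S) subunit, 31 encode proteins of the small (40S) subunit, and 7 are paralogs whose symbols end in L, L1 or AL: RPL3L, RPL7L1, RPL10L, RPL22L1, RPL26L1, RPL36AL and RPS27L. REH cells, an established line of human leukemia that arose from B-cell precursors, were treated for 24 h with 200 nM SNS-032, which inhibits CDK9 along with other cyclin-dependent kinases, or with the solvent DMSO. There were 3 libraries of SNS-032 cells and 3 of DMSO cells, and the question was which mRNAs differ between them. The labels do not say whether the libraries of a group came from separate cultures, so the p-values below measure only the spread between these libraries, which may be technical.

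The large subunit joins amino acids into protein and the small subunit reads the mRNA. A ribosome carries close to 1 copy of each of its proteins, apart from RPLP1 and RPLP2 of the stalk, which are present in more than 1 copy. The mRNAs of ribosomal proteins are among the most abundant of growing cells. Many of them start with a C followed by a run of pyrimidines, the 5′ terminal oligopyrimidine (TOP) tract, through which the mTOR kinase and the RNA-binding protein LARP1 set their translation and stability. Some proteins occur in every domain of life (universal) and others only in eukaryotes or in eukaryotes and archaea (here called eukaryotic).

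Levels are given in FPKM, which scale the fragments of a gene by the length of its transcript and by the fragments of the whole library. They are relative to the rest of the library, so less RNA per cell and fewer cells of a type cannot be told apart, and a change in how much RNA a cell holds does not show in them. No counts were used here, so the depth is unknown and no counting error is given. The summed FPKM of a library was 470094.5 to 491886.5 with SNS-032 and 457826.4 to 464307.5 with DMSO. The MTRNR2L genes, copies of a mitochondrial ribosomal RNA sequence, held 5.38% to 5.96% of that sum with SNS-032 and 1.22% to 1.34% with DMSO. Of 10 markers of B-cell precursors, 9 reached 1 FPKM, while MME stayed at or below 0.17 FPKM in every library. The sum of the 10 was 1114.4 to 1244.9 FPKM with SNS-032 and 1765.2 to 1909.7 FPKM with DMSO. Among markers of other cells, the 3 T cell genes summed to 2.07 to 3.85 FPKM with SNS-032 and 0.27 to 0.32 FPKM with DMSO, and the 4 myeloid genes to 18.4 to 21.3 FPKM with SNS-032 and 8.01 to 8.52 FPKM with DMSO. Most of the T cell sum was CD3G, with CD3D and CD3E at 0.09 FPKM or less, and MPO was at 0.17 FPKM or less. The myeloid genes did not move together, since LYZ had 15.7 to 17.7 FPKM with SNS-032 and 2.96 to 3.26 FPKM with DMSO, while CSF1R had 1.02 to 1.08 FPKM with SNS-032 and 4.65 to 5.2 FPKM with DMSO. COL1A1 and ALB, genes of cells outside the blood, together stayed at 0.59 FPKM or less. The share and the calls were also computed without the MTRNR2L genes, with the values in the last section. The part of the marker genes in the results below was not tested. Fold changes compare SNS-032 with DMSO as differences in log2(FPKM + 1), positive where SNS-032 is higher, each with its standard error (SE). A gene is called higher or lower where limma gave an adjusted p under 0.05, with the fit and the adjustment over the 12239 genes whose mean reached 1 FPKM with SNS-032 or with DMSO.

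The ribosomal protein genes took up a larger share of the measured mRNA after SNS-032, but they moved in both directions. They held 28.09%, 26.42% and 26.8% of the summed FPKM in the 3 SNS-032 libraries, against 21.31%, 21.81% and 21.85% in the 3 DMSO libraries (27.1 ± 0.873% and 21.7 ± 0.303%, mean ± SD, n = 3 each). The groups did not overlap, and SNS-032 replicate 1 was the highest. Without the 5 most abundant of the genes the share was 22.47%, 21.22% and 21.52% with SNS-032, against 18.41%, 18.85% and 18.87% with DMSO, a smaller difference with the groups still apart. Of the 83 genes that passed the filter, 43 were higher and 30 were lower, while of all genes tested 39.9% were higher and 49.3% were lower. The 43 include RPL3L, which passed the filter only through its level with SNS-032, so its call carries no weight. The median log2 fold change was 0.23 over these 83 genes and −0.14 over all genes tested. The 10 genes past neither side were RPL8, RPL10, RPL11, RPL28, RPL34, RPL36A, RPL38, RPS13, RPS18 and RPS23. Most of all genes tested were called too, so being called does not set these genes apart. The only gene below the filter was RPL10L, a paralog known for its expression in the testis, which was listed at 0 in 5 libraries and at 0.18 FPKM in SNS-032 replicate 3.

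On the deposited scale with 1 FPKM added, no ribosomal protein gene had an adjusted p under 0.001 and a log2 fold change as large as 2 in either direction. Such genes were few among all genes tested as well, with 431 of 12239 higher and 298 lower by these thresholds. RPS29 reached 2.01 with median-ratio scaling, and the paralog RPL3L 3.48 with 0.1 FPKM added. Without the paralogs, 14 of 77 genes (18.2%) had a log2 fold change of 1 or more and 4 (5.19%) had one of −1 or less, while of all genes tested 16.6% had 1 or more and 19.5% had −1 or less. With FPKM scaled by median-ratio size factors in place of the values as deposited, the median of all genes tested lay at 0.02, and the median of the ribosomal protein genes was 0.37 above it, against 0.36 above it as deposited. Under that scaling 53 of the genes were higher and 26 lower. The 10 genes past neither side were then all called higher, RPL6, RPL15, RPS6 and RPS7 were no longer called, and no gene was called in the opposite direction.

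**Figure D1:**
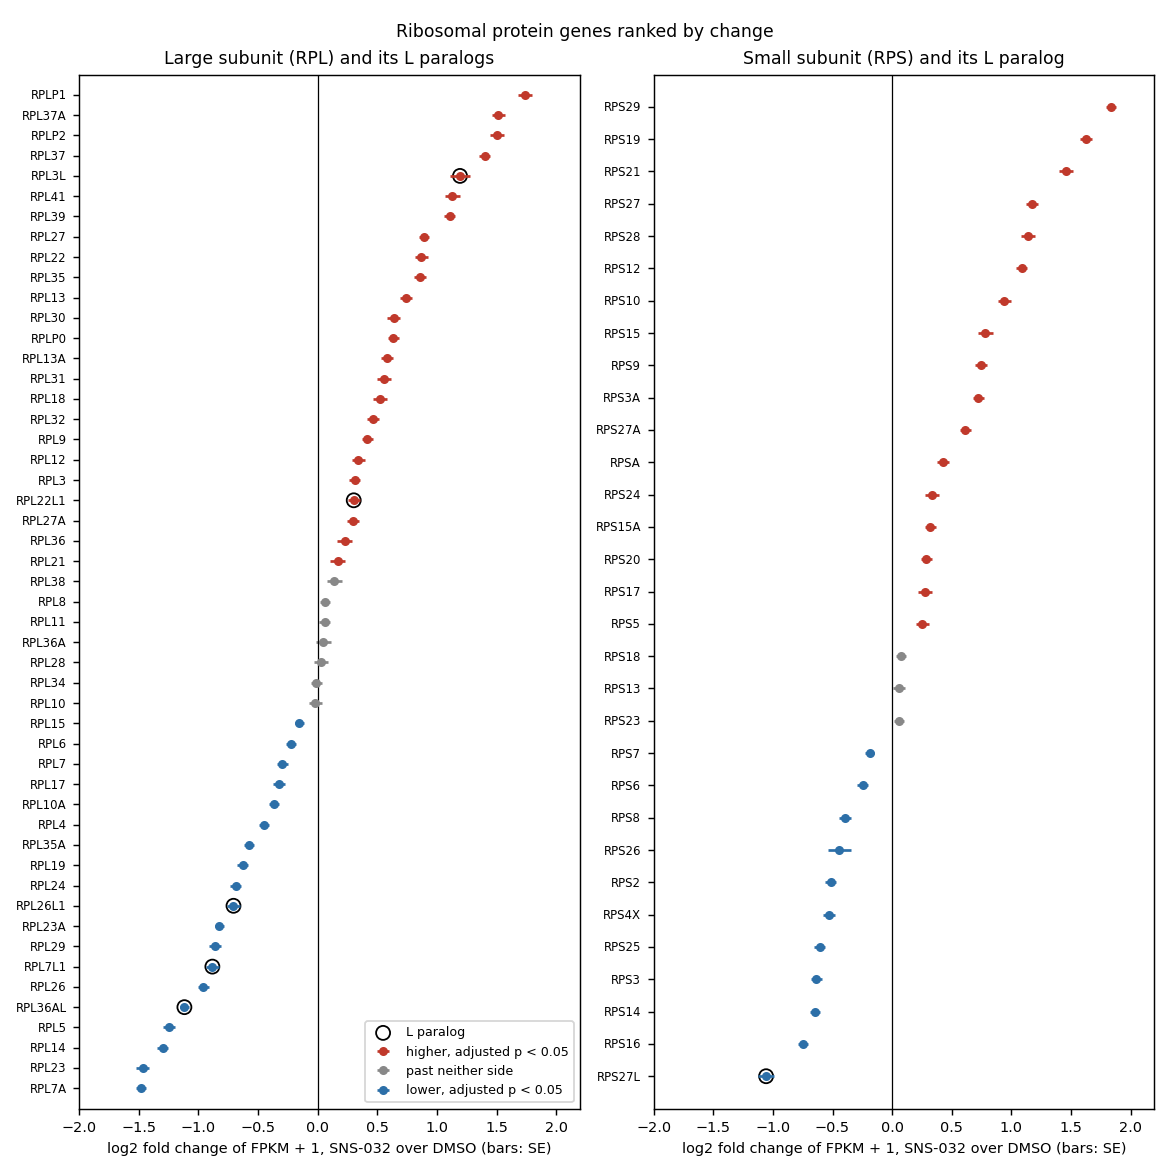
Log2 fold change of FPKM + 1, SNS-032 over DMSO, of 81 of the 83 ribosomal protein genes tested, with bars of 1 SE. Large subunit genes are on the left and small subunit genes on the right, each in order of the change, with L paralogs circled. Red points are 41 genes called higher, blue points the 30 called lower and grey points the 10 past neither side.

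All 77 genes without the paralogs were abundant, between 148.3 and 7961.8 FPKM in any library. Their levels were more uneven with SNS-032. The SD of log2(FPKM + 1) over the 77 genes was 1.09 in the mean of the SNS-032 libraries and 0.893 in that of the DMSO libraries, with SDs between libraries of 0.00699 and 0.0103 (n = 3 each). The top 10 genes of a library accounted for 33.3% to 34.0% of the FPKM of all 84 with SNS-032 and 25.7% to 26.0% with DMSO. RPLP1 was the most abundant of them in all 3 SNS-032 libraries and RPS6 in all 3 DMSO libraries. RPS26 was the least abundant of the 77 in every library except DMSO replicate 2, where RPS23 was. Across the 77 genes the mean level with SNS-032 followed that with DMSO with Pearson's r = 0.708 and Spearman's rho = 0.658 on the log2 scale, given as a description, since the genes share libraries and are not replicates. The spread between libraries was small beside these differences. The median coefficient of variation was 5.71% with SNS-032 and 3.07% with DMSO, and the highest was 14.7% with SNS-032, for RPS26, and 10.4% with DMSO, for RPL38.

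The median change was higher for the small than for the large subunit. Of 31 small subunit genes, 18 were higher, 10 were lower and 3 passed neither side, with a median log2 fold change of 0.29. Of the 46 large subunit genes, 23 were higher, 16 were lower and 7 passed neither side, with a median of 0.15. Beside both subunits, 39.9% of all genes tested were higher and 49.3% lower, with a median of −0.14. The large subunit genes held 15.1 ± 0.519% of the summed FPKM with SNS-032 and 12.4 ± 0.184% with DMSO. The small subunit genes held 11.9 ± 0.359% with SNS-032 and 9.20 ± 0.122% with DMSO (SD, n = 3 each). The summed FPKM of the large over the small subunit was 1.28, 1.27 and 1.26 in the SNS-032 libraries, against 1.34, 1.34 and 1.35 in the DMSO libraries. Every SNS-032 library lay below every DMSO library in this ratio. The difference between the subunits in the median, −0.13 for the large minus the small, was not tested, since the genes were chosen with results of these data known.

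**Figure D2:**
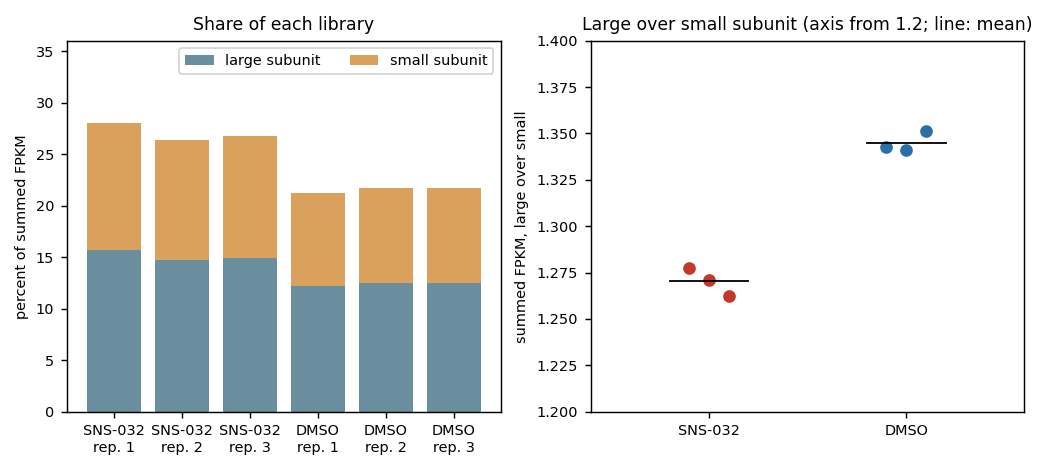
Left, percent of the summed FPKM of each library held by large and small subunit genes without the paralogs, as stacked bars for the 3 SNS-032 and the 3 DMSO libraries. Right, summed FPKM of the large over the small subunit, with 1 point per library, a line at the mean and an axis that starts at 1.2. The 3 SNS-032 libraries lie at 1.26 to 1.28 and the 3 DMSO libraries at 1.34 to 1.35.

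All 3 genes of the P stalk rose. The stalk is the flexible arm that recruits elongation factors, with RPLP0 as its base and RPLP1 and RPLP2 as its tips. RPLP1 had 7962, 6979 and 6876 FPKM in the SNS-032 libraries, against 2094, 2287 and 2150.3 FPKM in the DMSO libraries (log2 fold change 1.74 ± 0.0595, SE, adjusted p = 7.45e-11). RPLP2 had 4498, 3893 and 3926 FPKM with SNS-032, against 1409, 1475 and 1447 FPKM with DMSO (1.50 ± 0.056, adjusted p = 1.45e-10). RPLP0 moved less, with 4118, 3676 and 3833 FPKM in SNS-032 cells, against 2433, 2546 and 2503 FPKM in DMSO cells (0.63 ± 0.0485, adjusted p = 8.93e-08). In each of the 3 genes all SNS-032 libraries lay above all DMSO libraries, with SNS-032 replicate 1 the highest. The 3 genes together summed to 15253.9 ± 1147.5 FPKM with SNS-032 and 6114.7 ± 185.9 FPKM with DMSO (SD, n = 3 each).

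Other large subunit genes rose by more than 1 on the log2 scale. RPL37A, a zinc-binding protein, had 3563, 3188 and 3195 FPKM with SNS-032, against 1092, 1195 and 1194 FPKM with DMSO (1.51 ± 0.055, adjusted p = 1.21e-10). RPL37, which also binds zinc, had 958, 904 and 909 FPKM with SNS-032, against 346, 336 and 366 FPKM with DMSO (1.40 ± 0.0448, adjusted p = 4.28e-11). RPL41, the shortest ribosomal protein, averaged 4058 ± 357 FPKM with SNS-032 and 1852 ± 98.3 FPKM with DMSO (SD, n = 3 each), and RPL39, a small protein of the tunnel through which the nascent chain leaves, averaged 2032 ± 74.8 FPKM with SNS-032 and 944 ± 53.3 FPKM with DMSO. The groups were well apart in all 4 genes.

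The falls of the large subunit were led by RPL7A, RPL23, RPL14 and RPL5. RPL7A, an RNA-binding protein found in eukaryotes, had 567, 543 and 533 FPKM with SNS-032, against 1519, 1507 and 1571 FPKM with DMSO (−1.48 ± 0.0412, adjusted p = 1.48e-11). RPL23, a universal protein at the face toward the small subunit that can also bind the p53 regulator MDM2, had 585, 518 and 534 FPKM with SNS-032, against 1471, 1446 and 1615 FPKM with DMSO (−1.47 ± 0.0565, adjusted p = 1.93e-10). RPL14, a eukaryotic protein, had 609, 565 and 568 FPKM with SNS-032, against 1409.9, 1401 and 1484 FPKM with DMSO (−1.30 ± 0.0449, adjusted p = 7.75e-11). Every SNS-032 library was below every DMSO library in these genes, by a wide margin.

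RPL5 and RPL11 enter the ribosome together, bound to 5S ribosomal RNA, and bind MDM2 as that complex. They moved apart. RPL5 had 463, 420.4 and 467 FPKM with SNS-032, against 1034, 1066 and 1103 FPKM with DMSO (−1.25 ± 0.049, adjusted p = 2.33e-10). RPL11 had 1939, 1764 and 1839 FPKM with SNS-032, against 1709.8, 1758 and 1853 FPKM with DMSO (0.06 ± 0.0483, adjusted p = 0.2643). The groups were separate for RPL5 and overlapped for RPL11, where DMSO replicate 3 lay within the SNS-032 values. RPL26, which lies near the exit of the tunnel, was also lower (−0.96 ± 0.0464, adjusted p = 1.34e-09), as were RPL29 (−0.86), RPL23A (−0.82), RPL24 (−0.69) and RPL19 (−0.63). RPL34 was the large subunit gene nearest to 0, with 726, 652 and 664 FPKM with SNS-032, against 677, 692 and 691 FPKM with DMSO (−0.01 ± 0.0467, adjusted p = 0.7929), and RPL10 lay close to it (−0.02 ± 0.0573, adjusted p = 0.7529). With median-ratio scaling both were called higher.

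In the small subunit the rises were larger than the falls. RPS29, a short zinc-binding protein of the head of the subunit, had the largest rise of the 77 genes without the paralogs, with 1493, 1614 and 1555 FPKM with SNS-032, against 441, 425 and 436 FPKM with DMSO (1.84 ± 0.0423, adjusted p = 3.81e-12). RPS19, needed for the maturation of the subunit and the gene most often mutated in Diamond-Blackfan anemia, had 3506, 3232 and 3149 FPKM with SNS-032, against 1053, 1088 and 1059 FPKM with DMSO (1.63 ± 0.0471, adjusted p = 2.02e-11). RPS21, a eukaryotic protein, had 1227, 1089.6 and 1046 FPKM with SNS-032, against 397, 430.5 and 391 FPKM with DMSO (1.46 ± 0.0606, adjusted p = 3.84e-10). In these 3 genes the lowest SNS-032 library was above the highest DMSO library by more than 2-fold. RPS27, a zinc-binding protein and the second most abundant of the genes with SNS-032, had 6947, 6123 and 6475 FPKM, against 2825, 2902 and 2923 FPKM with DMSO (1.17 ± 0.05, adjusted p = 4.53e-10). RPS28 (1.14) and RPS12 (1.09) also rose by more than 1.

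No small subunit gene other than the paralog RPS27L fell by 1 or more. RPS16, whose tail reaches the decoding site, had 586, 556 and 549.7 FPKM with SNS-032, against 919, 958 and 961 FPKM with DMSO (−0.75 ± 0.0422, adjusted p = 5.55e-09). RPS14, whose loss on chromosome 5q causes the anemia of a form of myelodysplastic syndrome, had 937, 910.0 and 915 FPKM with SNS-032, against 1377, 1486 and 1472 FPKM with DMSO (−0.65 ± 0.0427, adjusted p = 2.22e-08). RPS3, at the entry of the mRNA channel, had 518, 486 and 511 FPKM with SNS-032, against 744, 814 and 799 FPKM with DMSO (−0.64 ± 0.0463, adjusted p = 5.67e-08). The groups stood apart in all 3. RPS25, a eukaryotic protein known for its role at viral internal ribosome entry sites, had 764, 751 and 782 FPKM with SNS-032, against 1101, 1172 and 1227 FPKM with DMSO (−0.61 ± 0.0465, adjusted p = 9.28e-08). RPS4X (−0.53) and RPS2 (−0.52) were lower too.

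RPS6, the classic substrate of S6 kinase, had 3335, 3052 and 3239 FPKM with SNS-032, against 3764, 3713 and 3924 FPKM with DMSO (−0.24 ± 0.0461, adjusted p = 0.0003083). The fall was small and the groups did not overlap, but it was not called after median-ratio scaling. RPSA, also known as a receptor for laminin, was higher, with 1535, 1366 and 1471 FPKM with SNS-032, against 1071, 1104 and 1073 FPKM with DMSO (0.43 ± 0.0478, adjusted p = 3.24e-06). RPS23, a universal protein of the decoding center, was the small subunit gene nearest to 0, with 241, 219.8 and 235 FPKM with SNS-032, against 220.2, 226 and 223 FPKM with DMSO (0.05 ± 0.0427, adjusted p = 0.2387).

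**Figure D3:**
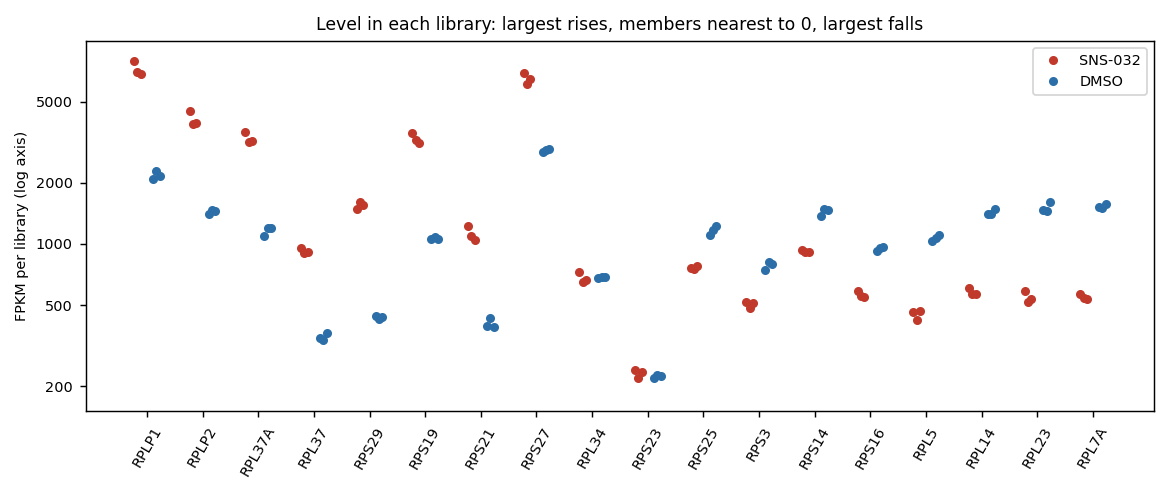
FPKM in each library, on a log axis, of 18 ribosomal protein genes without the paralogs: the 4 largest rises of each subunit on the left, RPL34 and RPS23 in the middle and the 4 largest falls of each subunit on the right. Red points are the 3 SNS-032 libraries and blue points the 3 DMSO libraries. The colors are apart in all genes shown except RPL34 and RPS23.

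Universal and eukaryotic proteins both held rises and falls. Of 33 universal proteins, 15 were higher and 12 lower, with a median of 0.06, and of 42 eukaryotic proteins 24 were higher and 14 lower, with a median of 0.31. RPLP1 (1.74) and RPLP2 (1.50), both called higher, were placed in neither class. The eukaryotic proteins of the small subunit had the highest median of the 4 classes by subunit, 0.47, with 10 of 16 higher and 6 lower. The universal proteins of the large subunit had the lowest, 0.02, with 7 of 18 higher and 8 lower. Of the 18 genes known to be mutated in Diamond-Blackfan anemia, 11 were higher, among them RPS19, RPS29 and RPS28, and 6 were lower, among them RPL5, RPL26 and RPL35A, with a median of 0.43. The 59 other genes without the paralogs had 30 higher and 20 lower and a median of 0.17. Beside them, 39.9% of all genes tested were higher and 49.3% lower. These lists describe the genes and were not tested against each other.

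Genes of short proteins had the higher changes. Over the 77 genes without the paralogs, the log2 fold change and the coding length had a Spearman's rho of −0.450, with −0.467 within the large subunit and −0.392 within the small one. Over 11946 genes tested with a known coding length the same rho was −0.016. These are descriptions across genes that share libraries. Of the 9 ribosomal protein genes with a coding length of up to 300 bases, 8 were higher and none was lower, with a median of 1.17. The one past neither side was RPL38 (0.14 ± 0.0666, adjusted p = 0.06518). From 300 to 450 bases 17 of 27 were higher and 6 lower (median 0.29), from 450 to 600 bases 9 of 19 were higher and 7 lower (median 0.07), and above 600 bases 7 of 22 were higher and 13 lower (median −0.23). Over these ranges, shortest first, the large subunit genes had medians of 1.13, 0.38, 0.06 and −0.19. The small subunit genes had 1.32, 0.29, 0.34 and −0.32, so they were not the higher in every range. The other genes tested had medians of −0.23, −0.18, −0.19 and −0.16 over the same ranges, shortest first. Among other genes of at least 200 FPKM with DMSO the medians were −0.18, −1.16, 0.03 and −0.62, from 18, 28, 26 and 147 genes, so they differed between the ranges without stepping down from each to the next. Of the 276 other genes of up to 300 bases, 41.3% were higher and 51.1% lower. FPKM divide by transcript length, and the part of this in the relation was not tested. The change had a weaker relation with the level in DMSO cells (rho = −0.113) and with the number of pseudogenes named after the gene (rho = −0.171, n = 77 for both).

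**Figure D4:**
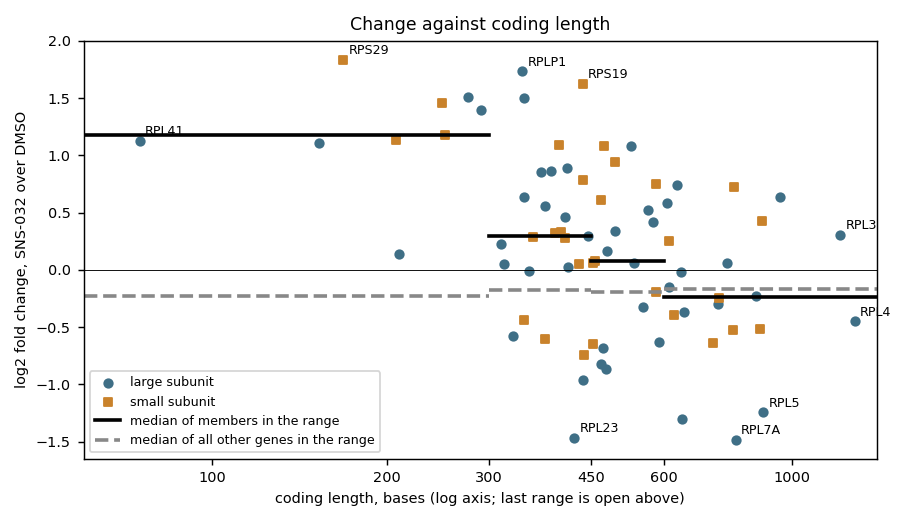
Log2 fold change, SNS-032 over DMSO, against coding length in bases on a log axis, for the 77 ribosomal protein genes without the paralogs. Circles are large and squares small subunit genes, black lines the median of these genes within each range of length and dashed grey lines the median of all other genes tested. The black lines step down through 1.17, 0.29, 0.07 and −0.23, while the grey lines lie between −0.23 and −0.16.

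The annotated starts of the genes were read for a TOP tract, since the tract is the feature these mRNAs are known for. RefSeq (GRCh38.p14) held a promoter for 68 of the 84 genes, 67 of them tested. A start was counted as a TOP start where a C at the annotated first base was followed by at least 4 more C or T, on the strand of the gene. It was found, at 1 of its annotated starts or more, in 47 of the 67 genes, 70.2%, and in 906 of 14166 other genes of the table with a promoter, 6.40%. Below are the 15 bases before and the 15 bases from the annotated start, 5′ to 3′, with capitals for the run of C and T that begins at the start, for 3 strong rises and 3 strong falls that carry it.

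RPLP1 (chr15:69452803-69452832, plus strand): gtataggcgcgagagCCCCTTTCCTCagct
RPLP2 (chr11:809952-809981, plus strand): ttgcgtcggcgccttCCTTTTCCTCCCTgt
RPS19 (chr19:41860240-41860269, plus strand): ggaaaccccgtcgttCCCTTTCCCCTggct
RPL7A (chr9:133348203-133348232, plus strand): ccacaattccctttcCTTTCTCTCTCCTCC
RPL14 (chr3:40457324-40457353, plus strand): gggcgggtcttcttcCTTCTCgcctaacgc
RPS16 (chr19:39435935-39435964, minus strand): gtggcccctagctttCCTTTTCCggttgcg

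The run of RPL7A goes on beyond the last base shown. RPS19 has 2 annotated starts, and the start not shown has no tract. These 6 genes were picked for carrying a tract. The first 3 rose and the last 3 fell, by 1.48, 1.30 and 0.75 on the log2 scale. Among genes with a TOP start other than the paralogs, 26 of 46 were higher and 11 lower, with a median of 0.31, and among those without one 7 of 16 were higher and 9 lower, with a median of −0.17. Over all genes tested 39.9% were higher and 49.3% lower. The largest rise among the 77 genes, RPS29, has no tract at its annotated start, which is shown for that reason.

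RPS29 (chr14:49598696-49598725, minus strand): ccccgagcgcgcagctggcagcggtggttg

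An annotated start can differ from the one a cell uses, so the letters describe the annotation only. The ETS motif CCGGAAG lay on either strand of the promoter, from 250 bases before to 50 bases after the start, in 35.8% of the 67 genes and 17.9% of other genes. The TATA motif TATAAA, searched in the same way, lay in 8.96% of the 67 genes and in 10.9% of other genes. Of the 24 genes with CCGGAAG, 11 were higher and 9 lower, and of the 43 without it 23 were higher and 15 lower. Among all genes tested 39.9% were higher and 49.3% lower. The promoter searched for the motifs includes the tract.

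The L paralogs are related copies with lower or tissue-restricted expression, and 4 of the 6 tested were lower, beside 49.3% of all genes tested. RPL36AL had 114, 121 and 123 FPKM with SNS-032, against 259, 260.3 and 262 FPKM with DMSO (−1.12 ± 0.0402, adjusted p = 1.10e-10). Its parent RPL36A had 814, 674 and 716 FPKM with SNS-032, against 717, 689 and 719.5 FPKM with DMSO (0.05 ± 0.0613, adjusted p = 0.4719). The groups were apart for the paralog and overlapped for the parent, and RPL36AL made up 13.99% of the pair with SNS-032 and 26.87% with DMSO. RPS27L, a target of p53, had 14.4, 17.1 and 16.7 FPKM with SNS-032, against 33.3, 33.8 and 36.1 FPKM with DMSO (−1.06 ± 0.067, adjusted p = 1.55e-08), while its parent RPS27 rose. The log2 ratio of RPS27L over RPS27 was lower by 2.23 with SNS-032, with 1 FPKM added to both, and RPS27L made up 0.246% of the pair with SNS-032 and 1.18% with DMSO.

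RPL7L1, whose counterpart in yeast takes part in the maturation of the large subunit, had 26.7, 29.3 and 30.8 FPKM with SNS-032, against 55.9, 52.9 and 53.6 FPKM with DMSO (−0.88 ± 0.0562). Its parent RPL7 was lower as well (−0.30 ± 0.0432). RPL26L1 had 21, 19.4 and 20.8 FPKM with SNS-032, against 33.1, 33.5 and 35.2 FPKM with DMSO (−0.71 ± 0.0525), and its parent RPL26 fell by 0.96. In the pair of RPL26L1 the paralog fell less than the parent, and in the pair of RPL7L1 it fell more.

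RPL22L1 and RPL3L were the paralogs called higher. RPL22L1 had 53.8, 49.3 and 55.3 FPKM with SNS-032, against 42.4, 43.3 and 42 FPKM with DMSO (0.30 ± 0.0508), but its parent RPL22, an RNA-binding protein needed for lymphocyte development in mice, rose more, with 708, 617 and 616 FPKM with SNS-032, against 350.3, 359 and 351 FPKM with DMSO (0.87 ± 0.054, adjusted p = 1.32e-08). RPL22L1 made up 7.54% of its pair with SNS-032 and 10.8% with DMSO. RPL3L, a paralog of heart and skeletal muscle, had 1.44, 1.17 and 1.47 FPKM with SNS-032, against 0.03, 0.03 and 0.03 FPKM with DMSO (1.19 ± 0.0842 with 1 FPKM added, 3.48 with 0.1 FPKM added and 1.85 after rescaling the libraries to a common total). It passed the filter only through its level with SNS-032, so it had to differ between the groups, and its call carries no weight. Its level stayed near 1 FPKM, far below that of RPL3, which averaged 1823 ± 104 FPKM with SNS-032 and 1469.9 ± 5.29 FPKM with DMSO (SD, n = 3 each, 0.31 ± 0.0466).

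The shift of each paralog against its parent was tested over the 6 libraries with an exact two-sided permutation test, whose smallest possible p is 0.1 with 3 libraries against 3. In 6 of the 7 pairs the groups did not overlap and the exact p was 0.1 (0.117 adjusted over the 7 pairs), so that no pair could pass 0.05. The pair of RPL3L is among the 6, although this paralog stood at 0.03 FPKM in every DMSO library. The difference in the log2 ratio of paralog over parent, SNS-032 minus DMSO, was −2.23 for RPS27L, −1.17 for RPL36AL, −0.59 for RPL7L1, −0.57 for RPL22L1, 0.25 for RPL26L1 and 0.88 for RPL3L, all with 1 FPKM added. The value of RPL3L depends on this, as it was 3.17 with 0.1 FPKM added, so the pairs are not ranked by size. For RPL10L the ratio rests on the parent alone, as the paralog was at or near 0 (exact p = 0.5).

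**Figure D5:**
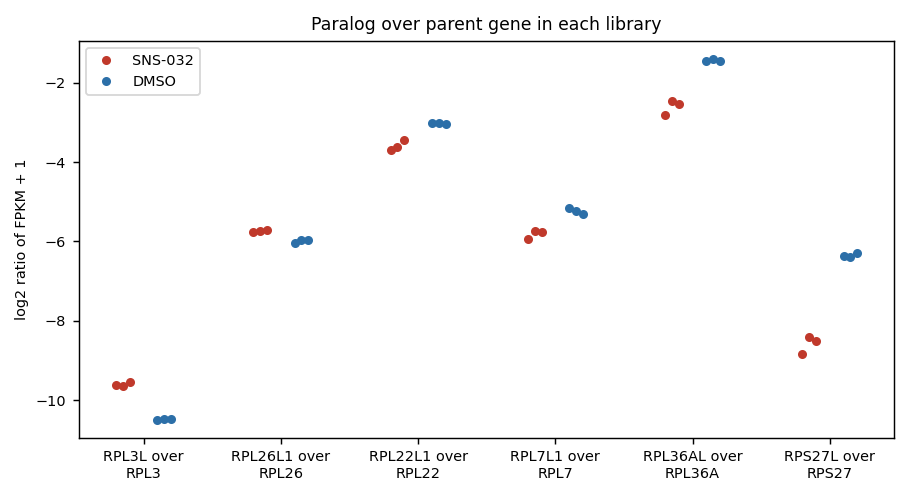
Log2 ratio of paralog over parent, each as FPKM + 1, in the 3 SNS-032 libraries (red) and the 3 DMSO libraries (blue), for the 6 pairs whose paralog was tested, in order of the difference. The SNS-032 points lie above the DMSO points for RPL3L and RPL26L1 and below them for the other 4 pairs.

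The starts of 3 pairs are shown because a paralog and its parent can differ in the tract, with capitals as above. RPL22L1 and RPL22 both have one, RPS27 has one and RPS27L has none, and the run of RPL36AL is shorter than the minimum of 5, while that of RPL36A passes it.

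RPL22L1 (chr3:170870181-170870210, minus strand): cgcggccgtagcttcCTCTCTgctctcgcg
RPL22 (chr1:6199581-6199610, minus strand): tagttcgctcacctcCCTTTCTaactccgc
RPS27L (chr15:63157463-63157492, minus strand): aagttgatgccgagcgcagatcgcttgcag
RPS27 (chr1:153990747-153990776, plus strand): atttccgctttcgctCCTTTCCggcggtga
RPL36AL (chr14:49620612-49620641, minus strand): ctgtttcttccctttCCTgttaggcgagag
RPL36A (chrX:101390996-101391025, plus strand): tttgcctcgcggtttCTTTCTTTCCgcgcc

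Reads that fit more than 1 copy are uncertain for nearly all of these genes. Of the 77 genes without the paralogs, 76 have at least 1 pseudogene named after them in GENCODE, with a median of 10 and a maximum of 91 for RPL23A. Some also share exons with a readthrough gene that has a row of its own. RPL36A-HNRNPH2 had 120.4, 127 and 129 FPKM with SNS-032, against 34.4, 32.1 and 30.6 FPKM with DMSO, so that reads counted there could belong to RPL36A, or the reverse. RPL17-C18orf32 stayed below 10 FPKM in every library. How the fragments were divided among such copies was set by the authors' quantification, and its part in the changes was not tested.

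Ribosomal proteins outside the naming rule moved in both directions too. RACK1, a scaffold on the head of the small subunit, had 419.8, 413 and 421 FPKM with SNS-032, against 1167, 1205 and 1152 FPKM with DMSO (−1.49 ± 0.0385, adjusted p = 8.27e-12). FAU, which encodes a ubiquitin-like protein fused to a small subunit protein, had 787, 755 and 706 FPKM with SNS-032, against 457, 483 and 478 FPKM with DMSO (0.66 ± 0.0476, adjusted p = 5.01e-08). The groups were apart in both genes. RPS27A, a small subunit gene that encodes a fusion with ubiquitin, rose as well (0.61 ± 0.0468, adjusted p = 8.89e-08).

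The genes around the ribosomal proteins were mostly lower, in a table in which 49.3% of all genes tested were lower and 39.9% were higher (median −0.14). Of 77 mitochondrial ribosomal proteins, which build the separate ribosome of that organelle, 67 were lower and 3 were higher (median −1.08). MRPS18A averaged 2.47 ± 0.323 FPKM with SNS-032 and 25.6 ± 0.263 FPKM with DMSO (SD, n = 3 each, −2.94 ± 0.0725), and MRPL12 averaged 11.6 ± 1.92 FPKM with SNS-032 and 93.6 ± 6.64 FPKM with DMSO (−2.92 ± 0.102). The 3 that rose were MRPL44 (1.32), MRPL49 (0.69) and MRPL4 (0.30). With median-ratio scaling 7 of the 77 were called higher. Of the 28 MRPS genes, 25 were lower and the other 3 passed neither side as deposited. Of 37 factors of ribosome biogenesis, 28 were lower and 5 were higher (median −0.83). Of these, NCL, the nucleolar protein nucleolin, averaged 167 ± 7.28 FPKM with SNS-032 and 709 ± 27.4 FPKM with DMSO (−2.08 ± 0.046), and GAR1, a subunit of the particles that make pseudouridine, averaged 7.68 ± 0.543 FPKM with SNS-032 and 35.8 ± 1.15 FPKM with DMSO (−2.08 ± 0.06). NMD3, the adaptor that exports the large subunit from the nucleus, was higher (0.90 ± 0.0594, adjusted p = 2.38e-08), and so was BRIX1, a large subunit assembly factor (0.40 ± 0.0429, adjusted p = 2.17e-06). Between 2 and 9 of the 37 factors were called higher under the other settings tried, the most with median-ratio scaling.

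Dedicated chaperones hold single ribosomal proteins until they are built in. Their list, which also takes in the maturation factor ZNF622, had 5 of 7 lower and 2 higher, beside 49.3% lower and 39.9% higher among all genes tested. GRWD1, the chaperone of RPL3, averaged 8.76 ± 1.06 FPKM with SNS-032 and 31.3 ± 1.04 FPKM with DMSO (−1.73 ± 0.0744), while RPL3 itself rose. TSR2, the chaperone of RPS26, was higher (0.28 ± 0.0523, adjusted p = 0.0003195), while RPS26 fell (−0.44 ± 0.101, adjusted p = 0.002479). ZNF622, which acts in the late maturation of the large subunit, had the largest rise of the list, with 66.2, 66 and 65.7 FPKM with SNS-032, against 12.9, 12.7 and 13 FPKM with DMSO (2.27 ± 0.0447, adjusted p = 1.25e-12).

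Of 17 elongation factors and other genes known for TOP mRNAs, 14 were lower and 3 were higher (median −0.62), against 41 higher and 26 lower and a median of 0.25 among the 77 ribosomal protein genes. With median-ratio scaling 10 of the 17 were lower and 3 higher. PABPC1, the poly(A)-binding protein, averaged 2406 ± 114 FPKM with SNS-032 and 1556 ± 19.4 FPKM with DMSO (SD, n = 3 each, 0.63 ± 0.0443) and was higher together with NACA (0.43) and BTF3 (0.17), the subunits of the nascent chain complex at the tunnel exit. The largest falls were NPM1, a nucleolar chaperone (−1.73 ± 0.0431), and EIF3E, a subunit of the initiation factor that binds the small subunit (−1.47 ± 0.0466). EEF1A1, the factor that brings tRNA to the ribosome, had −0.27 as deposited and −0.09 with median-ratio scaling, where it was no longer called, and EEF2, which moves the ribosome along the mRNA, had −0.13 as deposited and 0.04 with that scaling, also not called. Other genes of at least 200 FPKM with DMSO, 219 in all, had 54 higher and 151 lower and a median of −0.61.

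The genes that control these mRNAs had 8 of 9 lower, beside 49.3% of all genes tested. MYC, the transcription factor that drives ribosomal protein genes, averaged 66.4 ± 0.82 FPKM with SNS-032 and 104 ± 1.39 FPKM with DMSO (−0.64 ± 0.0385, adjusted p = 9.97e-09). MTOR averaged 9.11 ± 0.633 FPKM with SNS-032 and 22.8 ± 0.416 FPKM with DMSO (−1.24 ± 0.0603), and its partners RPTOR (−0.88) and MLST8 (−1.94) were lower as well. LARP1, which binds the TOP tract, had 56.8, 67.9 and 68.8 FPKM with SNS-032, against 82.8, 81.5 and 81.5 FPKM with DMSO (−0.35 ± 0.0649, adjusted p = 0.0003069). The translation repressors EIF4EBP1 (−1.98) and EIF4EBP2 (−1.87) and the S6 kinase RPS6KB1 (−1.38) fell by more than 1, whereas the S6 kinase RPS6KB2 was higher (0.36 ± 0.0552, adjusted p = 5.30e-05). These are levels of mRNA and not of protein or of kinase activity.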

How the data were processed

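RNA of REH cells was extracted with TRIzol and sequenced, with 3 libraries of SNS-032 cells and 3 of DMSO cells. The authors aligned filtered reads (Bowtie2, HISAT) and computed FPKM per gene by RSEM. HISAT2 2.0.4 and GRCh38.p12 are named in the submitters' processing notes. The deposited table holds FPKM to 2 decimals for 18216 genes. The deposited columns of the authors' own comparison (log2 change, q-value and p-value per gene) were not used.

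FPKM were tested as log2(FPKM + 1) with limma 3.58.1 in R 4.3.3 (trended prior variance, robust estimation, no covariate), over the 12239 genes whose mean reached 1 FPKM in 1 group or both, with Benjamini-Hochberg adjustment over all of them. Depth is unknown for values in FPKM, so precision rests on the spread between libraries. Paralog ratios were compared with an exact permutation test. Summaries and figures were made in Python 3.11.15 with pandas 2.3.3, scipy 1.17.1 and matplotlib 3.10.9.

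The genes, lists and alternatives were chosen with earlier results of these data known. Lists were described by counts and medians, with no list test. The named genes are every paralog and its parent, RPSA, the P stalk, RPL5, RPL11, RPL23, RPS6, the 3 most abundant genes, the 4 largest rises and falls and the gene nearest to 0 in each subunit, genes below the filter, the lists of control genes and other ribosomal proteins, and up to 2 rises and 2 falls of other lists. A few of these are not reported here. Genes named beyond this rule were chosen after their values were seen. Symbols came from RefSeq for 17934 genes, coding lengths and pseudogene names from GENCODE v29 on GRCh38, and start sequences from RefSeq on GRCh38.p14, which gave an entry for 68 of the 84 genes. RPL39L, a further paralog, was not analysed here. Alternatives were a pseudocount of 0.1, no filter, rescaling to a total of 1e+06, median-ratio size factors, leaving out MTRNR2L genes, a plain prior, a replicate block, leaving out each library, and stricter thresholds.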

Additional observations from a re-analysis of the deposited data

How the results depend on the processing

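The counts of ribosomal protein genes higher (42 to 53) and lower (26 to 30) stayed within 1.5 times of 43 and 30 under every other scaling, filter, pseudocount and prior tried and without any 1 library. At the stricter thresholds, an adjusted p under 0.001 and a log2 fold change as large as 2 in either direction, 0 were higher and 0 lower. With median-ratio size factors their median log2 fold change was 0.40, against 0.23 as deposited, and RPL10 and RPL34 changed sign, to 0.15 and 0.16. The median of the large minus the small subunit stayed between −0.16 and −0.10 without any 1 library, and that of all the genes between 0.17 and 0.26. The share of the summed FPKM, SNS-032 minus DMSO, was 5.45 percentage points. It was 6.77 without the MTRNR2L genes, 3.03 without the 5 most abundant genes, and 4.95 to 5.79 without any 1 library. RPL21 was no longer called without DMSO replicate 1 and with a plain prior, RPL38 was called higher without DMSO replicate 2, and RPL8, RPL38 and RPS18 were called higher without the MTRNR2L genes. Deviations of same-numbered libraries from their group means had r = −0.119, 0.0136 and −0.0164, against −0.109 to 0.124 for libraries of different numbers. The labels do not say whether same-numbered libraries were made together, and these values cannot decide it. With the number as a replicate block, 43 genes were higher and 30 lower, and no call changed. Depth, counting error and the division of reads among near-identical copies could not be assessed from FPKM.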
